A study of Mus musculus with 20 samples.

Results

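Transcript levels were compared between 5 libraries of murine cancer-associated fibroblasts (CAFs) kept in 0.2 mM glutamine and 5 libraries of the same cells kept in 4 mM glutamine, each for 32 h. These 10 libraries, of the 20 in the series, are all those that received only the DMSO vehicle at either glutamine level. The cells were described in the labels as an immortalised primary line from mouse, so the culture is a dividing line and not fresh stroma. The remaining 10 libraries had EIPA (25 uM) added at 0.2 mM glutamine or the cytokine IL-1a (25 pg/mL) added at 4 mM. Of these, the sample titles name DMSO for the IL-1a libraries only. EIPA is an inhibitor of macropinocytosis, and its dose is that of the sample titles, since the treatment text gives mM in place of uM. Those 10 libraries entered the estimate of the spread and the filter on low levels, and they are not described here. Nothing in the labels ties the 5 replicates to separate cultures, and the p-values then describe only the spread among these libraries, which may be technical.

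Glutamine supplies nitrogen for asparagine, purines and pyrimidines and carbon for the citric acid cycle, and it is scarce in pancreatic tumours. When amino acids run short, uncharged tRNAs activate the kinase GCN2, translation slows, and the transcription factor ATF4 raises genes of amino acid synthesis and uptake. Pancreatic CAFs are usually sorted into contractile, matrix-making myofibroblastic cells (myCAFs), cytokine-making inflammatory cells (iCAFs) and antigen-presenting cells (apCAFs), and the series asks how these identities hold under metabolic stress.

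The cells carried fibroblast transcripts at both glutamine levels. Vim, which encodes the intermediate filament vimentin, was at 2254 against 3186 TPM (transcript abundance as a share of the library, means of 5 libraries, 0.2 mM before 4 mM here and below), and 12 of 14 fibroblast genes passed the filter of at least 1 TPM in at least 5 of the 20 libraries. Fap, a common CAF marker, was near 0 with means of 0.056 and 0.038 TPM, and Thy1 was low at 1.70 against 5.25 TPM. Some markers of other lineages were at or near 0, the highest single library holding 0.01 TPM of Ptprc (leukocytes), 0.36 TPM of Epcam (epithelium) and 0.35 TPM of Pecam1 (endothelium), and Sox10 (Schwann cells) and Prss2 (acinar cells) being listed at 0 in all 10 libraries. Others were expressed. Of 8 leukocyte markers 3 passed the filter, and the 8 summed to 7.90 to 10.8 TPM at 0.2 mM and 15.2 to 19.9 TPM at 4 mM, most of it Cd14 (7.14 against 13.7 TPM). Of 7 epithelial markers 3 passed, Cdh1, Krt18 and Krt19, and the sum of 133 to 206 TPM at 0.2 mM and 186 to 397 TPM at 4 mM was mostly Krt19 (at most 199 TPM at 0.2 mM and 379.7 TPM at 4 mM in a library), with Cdh1 at 0.3 against 1.52 TPM. Of 6 endothelial markers Kdr alone passed (6.93 against 2.86 TPM), of 6 mural markers Mcam (8.56 against 10.2 TPM) and of 5 acinar markers Cela1 (1.76 against 3.29 TPM). Of 5 Schwann cell markers 2 passed, among them Mbp (31.5 against 35.2 TPM). Of 12 mesothelial markers 11 passed the filter, and they are taken up with the CAF markers. Each library had between 11781 and 12015 genes at 1 TPM or more. Replicate 5 of both groups stood apart from the other 4: its median correlation with its own group was 0.9884 at 0.2 mM and 0.99 at 4 mM, against 0.9946 to 0.9955 for the rest. Results are therefore also given without this pair of libraries where that matters.

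Most genes tested differed in level between 0.2 mM and 4 mM glutamine, few of them by 2-fold. Of 12350 genes tested, 5606 were higher and 3449 lower at 0.2 mM (45.4% and 27.9%, together 73.3%; limma, Benjamini-Hochberg adjusted p under 0.05), and in 59.9% the 5 and 5 libraries did not overlap. Without replicate 5 of both groups the counts were 5520 and 3368. The median gene was itself 0.14 higher (log2) at 0.2 mM, so changes below are differences of log2(TPM + 1), 0.2 mM minus 4 mM, relative to the median gene, ± SE of the fit, while TPM values carry the SD of 5 libraries after ±. The split depended on the scaling, with 4385 higher and 4438 lower after median-of-ratios scaling, 4932 and 3988 after quantile normalisation, 4311 and 4487 relative to the median gene of each library, and 5409 and 3583 without the mitochondrially encoded genes. A gene is therefore said to rise or fall below only where it was called as deposited and again in the same direction under all 4 of these scalings, and is said not to be called otherwise. Mitochondrially encoded genes are absent from the last of these scalings and were judged by the rest. Adjusted p-values are those of the change as deposited, before subtraction of the median gene, unless another scaling is named. That left 4285 genes that rose (34.7%) and 3376 that fell (27.3%), of which 385 rose (3.12%) and 977 fell (7.91%) by at least 2-fold relative to the median gene. These shares are the background for every list count that follows. TPM are shares of a library's transcripts, so a change in RNA per cell or in the number of cells cannot be told apart from them.

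**Figure D1:**
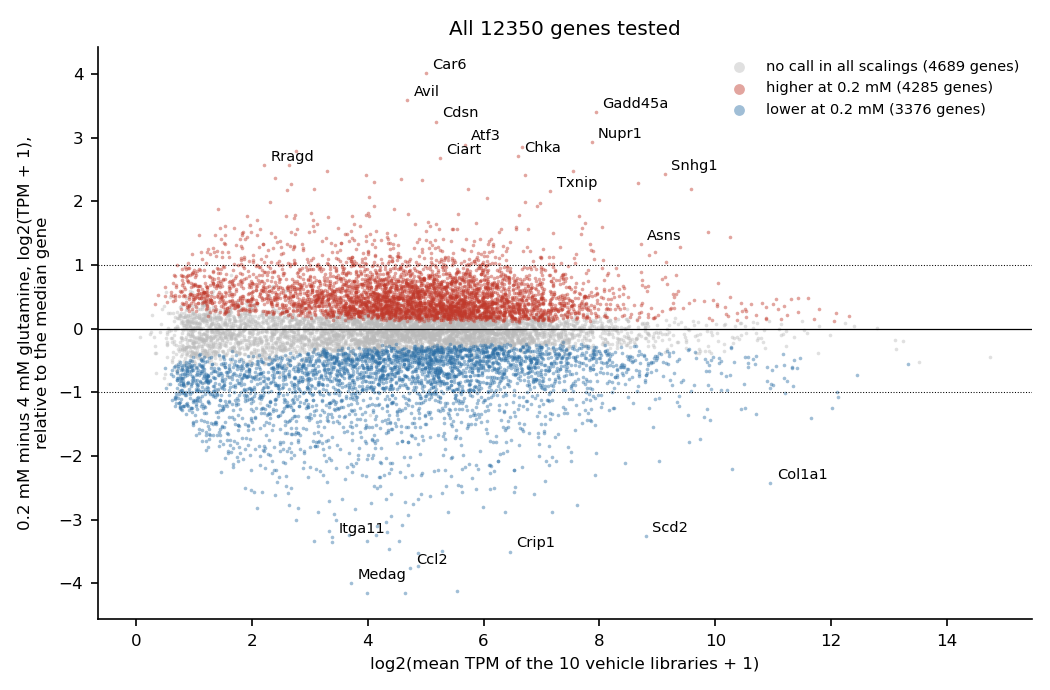
Change at 0.2 mM against 4 mM glutamine relative to the median gene (vertical axis, log2) against the mean level of the 10 vehicle libraries (horizontal axis, log2) for each of 12350 genes. Red points are the 4285 genes that rose and blue points the 3376 that fell under every scaling, dotted lines mark 2-fold, and more blue than red points lie beyond them (977 against 385).

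The largest rises were of genes that are little used in replete fibroblasts and of stress genes. Car6, a secreted carbonic anhydrase best known from saliva, was at 54.7, 54.1, 63.7, 68 and 56.6 TPM at 0.2 mM and at 2.22, 1.97, 2.07, 1.95 and 4.10 TPM at 4 mM. All 5 low-glutamine libraries lay far above the highest replete one, and the change of 4.02 ± 0.24 was the largest rise among all genes tested (limma, Benjamini-Hochberg adjusted p = 3.6e-12). Avil (advillin, an actin-binding protein), Cdsn (corneodesmosin, an adhesion protein of skin) and P2rx3 (an ATP-gated channel of sensory neurons) also rose, by 3.59 ± 0.20, 3.25 ± 0.23 and 2.48 ± 0.23, from 2.65, 5.45 and 1.68 TPM. Avil and P2rx3 overlap genes on the opposite strand (Tsfm and Ssrp1). Whether the counting used strand is not given in the sources used here, so their levels are uncertain. The same limit holds for other genes named below, among them Psph (overlapping Cct6a), Slc6a9 (Ccdc24 and B4galt2), Sqstm1 (Mrnip) and Wars (Wdr25). It also holds for Ggps1 (Arid4b), Tgfb3 (Ttll5), Ccl25 (Elavl1) and mt-Nd6 (mt-Nd5). Chka, the choline kinase that opens phosphatidylcholine synthesis, went from 22.8 to 169 TPM (2.71 ± 0.09). Soat2, which esterifies cholesterol, rose from 0.674 to 9.85 TPM, and B4galnt2, a glycosyltransferase, from 0.556 to 11 TPM.

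The largest falls were of signalling, matrix and lipid genes. Il33, an alarmin cytokine held in the nucleus, was at 1.02, 0.72, 0.42, 1.41 and 0.71 TPM at 0.2 mM and at 23.2, 24.3, 32.4, 28.1 and 37.2 TPM at 4 mM. The groups were far apart, with no low-glutamine library near the lowest replete one, and the change was -4.15 ± 0.22 (limma, Benjamini-Hochberg adjusted p = 2.1e-12). Medag, a gene linked to adipocyte differentiation, fell by 4.00 and C1qtnf1, a secreted adiponectin relative, by 3.72. The imprinted long non-coding RNA H19 was at 0.65, 0.25, 0.36, 0.8 and 0.35 TPM at 0.2 mM and at 7.06, 7.87, 18.7, 10.5 and 27.2 TPM at 4 mM. It was under 1 TPM in every low-glutamine library, while the replete libraries spread widely with replicate 5 highest, and the change was -3.34 ± 0.30. Crip1, a LIM domain protein (14.6 against 158 TPM), and Daam2, a formin of Wnt and actin signalling (3.52 against 40.9 TPM), fell by 3.50 and 3.34. Synpo, an actin-associated protein, fell by 3.46 (2.79 against 36.7 TPM).

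Targets and partners of ATF4 were among the genes that rose most. Of 19 ATF4 and CHOP stress regulators 15 rose and 3 fell, with 7 rising and 1 falling at least 2-fold, and the median change was 0.85 against 0 for all genes tested. Nupr1, a small stress-induced chromatin protein, was at 409, 399.9, 419.6, 429 and 418 TPM at 0.2 mM and at 46.4, 43.3, 42.8, 52.8 and 58.9 TPM at 4 mM. The 5 low-glutamine libraries lay close to each other and far above the replete ones (2.94 ± 0.10; limma, Benjamini-Hochberg adjusted p = 6.3e-16). Atf3, a repressive factor of the same family, was at 89.9, 96.5, 92, 84.2 and 87.9 TPM at 0.2 mM and at 7.70, 10.1, 10.9, 9.94 and 12.8 TPM at 4 mM, again with no overlap (2.89 ± 0.14). Ppp1r15a, the phosphatase subunit that reverses the block on translation, rose from 21.8 ± 4.36 to 178 ± 17.1 TPM, and Trib3, a pseudokinase that restrains ATF4, from 83.2 ± 17.6 to 313 ± 42.4 TPM. Atf4 itself, which is controlled mainly by translation, moved less, from 492 ± 45.2 to 814 ± 53.6 TPM (0.59 ± 0.08). Ddit3, which encodes CHOP, was at 665, 649, 728, 620.5 and 755 TPM at 0.2 mM and at 118, 121, 122, 128 and 144 TPM at 4 mM. The groups were well apart in this model (2.29 ± 0.10), but a second overlapping model of Ddit3 shares its reads. That model was listed at 0 in replicate 5 at 0.2 mM, at 3987 to 4839 TPM in the other 4 and at 600 to 1041 TPM at 4 mM. Taken over both models, replicate 5 at 0.2 mM lay within the replete range. The level of either model is therefore uncertain.

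The regulators that did not follow were kinases and a growth brake. Eif2ak4, which encodes GCN2, fell by 0.47 and Eif2ak3, the endoplasmic reticulum kinase PERK, by 0.54. Ddit4, which restrains the growth kinase complex mTORC1, was at 14.2, 13.4, 10.0, 12.4 and 5.79 TPM at 0.2 mM and at 21, 21.3, 23.5, 19.9 and 31.2 TPM at 4 mM. Every low-glutamine library was below every replete one, and replicate 5 was the lowest at 0.2 mM and the highest at 4 mM (-1.18 ± 0.20). Chac1, which degrades glutathione, was at 84.9, 82.8, 84.8, 85.9 and 53 TPM at 0.2 mM and at 30.6, 39.4, 38.4, 44.7 and 59.3 TPM at 4 mM. Replicate 5 at 0.2 mM fell inside the replete range, so the groups overlapped, and the change of 0.74 ± 0.17 became 0.997 without replicate 5 of both groups. Slc7a11, the cystine-glutamate exchanger, had the same arrangement at 15.9, 13.7, 11.4, 16.4 and 7.73 TPM at 0.2 mM and at 3.82, 4.87, 5.35, 4.98 and 7.94 TPM at 4 mM, with 0.99 ± 0.18 in all libraries and 1.27 without that pair.

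**Figure D2:**
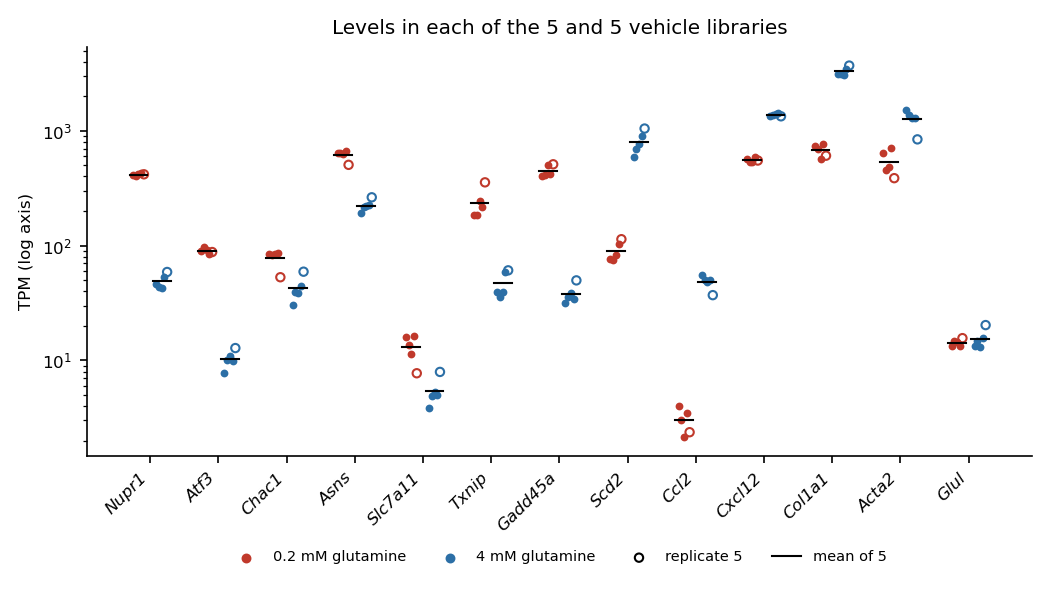
TPM (log axis) of 13 genes in each vehicle library, red for 0.2 mM and blue for 4 mM glutamine, with the mean of 5 as a bar and replicate 5 as an open circle. The groups are apart for all genes drawn except Chac1, Slc7a11 and Glul, and replicate 5 is the lowest red point for Chac1, Asns, Slc7a11 and Acta2.

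The amino acid and ATF4 lists can be set beside the letters of their promoters. TGATGNAA, the composite element to which ATF4 binds with a C/EBP partner, was searched on both strands from 250 bases before to 50 after each RefSeq start (GRCm38.p6). It was found in 6 of 22 promoters of the 18 matched ATF4 and CHOP regulators (27.3%), in 3 of 16 promoters of the 15 matched amino acid and folate genes (18.8%), in 2.16% of promoters of all genes tested and in 3.97% of all 32851 promoters. Upstream windows of 5 named genes are shown because they carry the element in genes that rose here. They are written on the gene's own strand with the match in capitals, which is the element itself in Asns and its reverse complement in the other 4.
Nupr1 (chr7:126625562-126625591, minus strand): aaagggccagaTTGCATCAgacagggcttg
Atf3 (chr1:191183401-191183478, minus strand): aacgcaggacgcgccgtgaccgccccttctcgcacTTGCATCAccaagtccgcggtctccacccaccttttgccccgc
Chac1 (chr2:119351014-119351091, plus strand): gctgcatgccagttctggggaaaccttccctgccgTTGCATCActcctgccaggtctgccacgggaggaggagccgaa
Asns (chr6:7693214-7693243, minus strand): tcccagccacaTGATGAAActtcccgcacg
Got1 (chr19:43524665-43524742, minus strand): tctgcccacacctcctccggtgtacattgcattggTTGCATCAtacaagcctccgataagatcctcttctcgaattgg
A match is a description of letters and no evidence of binding. The list of ATF4 and CHOP regulators was picked as targets and partners of ATF4, so its higher share is partly set by that choice. The matching promoters of the 2 lists also included Trib3, Fgf21, Vldlr and Pycr1.

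Enzymes that make amino acids from other carbon rose, asparagine synthetase first. Of 20 genes of amino acid and folate synthesis 13 rose and 1 fell, with a median of 0.51. Asns, which uses glutamine to make asparagine, was at 641, 639, 628, 667 and 505 TPM at 0.2 mM and at 192, 215, 221, 225 and 263 TPM at 4 mM. All low-glutamine libraries exceeded all replete ones, replicate 5 being the nearest of each (1.33 ± 0.10; limma, Benjamini-Hochberg adjusted p = 5.8e-11). Psph, Psat1 and Phgdh, the serine pathway, were at 344 against 130.3, 551 against 296 and 759.7 against 483 TPM, and rose by 1.23, 0.76 and 0.50. Psph was lowest at 0.2 mM in replicate 5 (189 TPM), and its rise was 1.54 without replicate 5 of both groups. The mitochondrial folate enzymes Aldh1l2, Shmt2 and Mthfd2 rose by 1.22, 0.66 and 0.52, and Pycr1, the last step to proline, by 1.04. Aldh18a1, the first step from glutamate to proline, was not called (142 against 140.2 TPM), and Ass1, which makes argininosuccinate, fell by 0.53.

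Enzymes that make or use glutamine itself moved little or in both directions. Of 22 glutamine and glutamate enzymes 7 rose and 5 fell, and the median was 0.05. Glul, glutamine synthetase, was at 13.2, 14.7, 14.6, 13.4 and 15.6 TPM at 0.2 mM and at 13.4, 14.8, 13.1, 15.7 and 20.3 TPM at 4 mM. The groups overlapped throughout, and the difference was not called, at -0.09 as deposited (limma, Benjamini-Hochberg adjusted p = 0.49) and -0.23 relative to the median gene of each library (adjusted p = 0.059). Gls2, which splits glutamine into glutamate and ammonia, rose at a low level (3.35 against 1.76 TPM). Got1 and Gpt2, transaminases that pass amino groups between glutamate and other acids, rose by 0.85 and 0.50. Glud1, which releases ammonia from glutamate, and Oat, which turns ornithine into glutamate semialdehyde, fell by 0.44 and 0.62. Gfpt1, the glutamine-using entry to hexosamine synthesis, fell from 58 to 39 TPM. Of the purine and pyrimidine enzymes, several of which take nitrogen from glutamine, 6 of 25 rose and 4 fell. Umps and Dhodh of pyrimidine synthesis rose by 0.98 and 0.63, and Cad, their glutamine-using first step, was at 84.2 against 82.2 TPM without a call.

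Carriers and tRNA charging enzymes followed the amino acid enzymes in part. Of 21 amino acid transporters 12 rose and 5 fell, with a median of 0.41. Slc7a3 and Slc7a1, which import cationic amino acids, rose by 1.41 and 1.11, Slc6a9, a glycine carrier, by 1.18, and Slc3a2, the shared heavy chain of several exchangers, from 275 to 561 TPM. The glutamine carrier Slc1a5 was at 101, 106, 109.9, 123 and 101 TPM at 0.2 mM and at 54.5, 53.5, 61.7, 61.3 and 81.6 TPM at 4 mM. It did not overlap between groups and rose by 0.66 ± 0.13. Slc38a2, a glutamine importer known to adapt to amino acid supply, was at 306, 291, 295, 304 and 315 TPM at 0.2 mM and at 230.2, 234, 237, 228 and 263 TPM at 4 mM and rose by only 0.20 ± 0.04. The 5 that fell were Slc38a4, Slc43a2, Slc6a6, Slc38a10 and Slc1a3, 3 of them under 5 TPM in both groups. Of 20 cytosolic aminoacyl-tRNA synthetases 11 rose and 1 fell. Nars and Wars, which charge asparagine and tryptophan tRNA, rose by 1.28 and 1.26. Replicate 5 was their lowest library at 0.2 mM (636 and 125 TPM). Without replicate 5 of both groups Nars, Wars and Slc6a9 rose by 1.46, 1.40 and 1.41. Qars, for glutamine, was at 97.3 against 102 TPM without a call, and Kars, for lysine, fell by 0.63.

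Endoplasmic reticulum stress genes split. Of 23 tested 7 rose and 9 fell, and the median was -0.06. Ero1l, an oxidase of the organelle, and Dnajb9, a co-chaperone, rose by 1.30 and 1.27, and the sensors Atf6 and Ern1 by 1.12 and 0.77. The abundant folding proteins Hsp90b1, Calr and Pdia4 fell by 1.06, 0.95 and 1.11, while Hspa5, the master chaperone BiP, was at 998 against 941 TPM without a call. Xbp1 fell by 0.76, counted over all its splice forms.

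Genes of lysosomal nutrient sensing rose more often than they fell, a Rag GTPase rising most. Of 27 genes that feed amino acid supply to mTORC1, 14 rose and 6 fell, with 2 rising and 2 falling at least 2-fold (median 0.19). Rragd, which holds mTORC1 at the lysosome and is a target of the TFEB family, was at 6.39, 7.24, 7.03, 5.79 and 8.86 TPM at 0.2 mM and at 0.26, 0.26, 0.23, 0.19 and 0.2 TPM at 4 mM. Its replete libraries were all under 0.3 TPM, so the log2(TPM + 1) change of 2.57 ± 0.11 understates its ratio. Flcn, Fnip1 and Fnip2, which form the complex that acts on this GTPase, rose by 1.14, 0.85 and 0.99, and Sesn2, a leucine sensor, by 0.42. Its relative Sesn1 fell by 1.39. Mtor itself was at 18.2 against 17.5 TPM and Rptor at 25.9 against 23.8 TPM, neither called.

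Autophagy and lysosome genes rose in number, most by less than 2-fold. Of 26 autophagy genes 18 rose and 1 fell, 2 of them at least 2-fold, with a median of 0.35. Sqstm1, the cargo receptor p62, went from 613 ± 51.3 to 1839 ± 301 TPM (1.43 ± 0.10), and Atg14, Nbr1 and Gabarapl2 rose by 1.10, 0.96 and 0.94. Of 37 lysosomal genes 19 rose and 9 fell, with a median of 0.24. The membrane glycoprotein Gpnmb and the channel Mcoln1 rose by 1.15 and 0.89, and the acid lipase Lipa and the hydrolase Gusb fell by 0.84 and 0.69. Tfeb, Tfe3 and Mitf, the factors that drive these genes, were at 13 against 11.9, 68 against 59.1 and 1.37 against 0.708 TPM, and only the last of them rose. Macropinocytosis genes, which serve the bulk uptake of fluid and protein, split: 8 of 32 rose and 12 fell. The heparan sulphate proteoglycan Sdc1 and the receptor Egfr fell by 1.32 and 1.12, and Rac1, the GTPase of membrane ruffles, was not called (600.5 against 568 TPM).

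Nearly the whole cholesterol route fell. Of 26 genes of cholesterol synthesis and uptake 25 fell and 1 rose, 22 of them falling at least 2-fold, and the median was -1.50. Idi1, the isomerase that readies isoprene units for joining, was at 27.2, 28.3, 27.3, 24 and 25.6 TPM at 0.2 mM and at 106, 119.6, 111, 128 and 123 TPM at 4 mM. The groups were far apart without overlap (-2.24 ± 0.09; limma, Benjamini-Hochberg adjusted p = 3.7e-14). Insig1, which retains the sterol sensor in the endoplasmic reticulum, was at 16.9, 17.8, 19.1, 16.7 and 18 TPM at 0.2 mM and at 56.5, 64.2, 59.9, 75.8 and 84.6 TPM at 4 mM. Its lowest replete library was far above its highest low-glutamine one (-2.01 ± 0.10).

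Along the route, Hmgcs1 and Mvd, early enzymes that lead to isoprene units, fell from 148 and 43.7 to 34 and 18 TPM. Fdps and Fdft1, which build farnesyl diphosphate and squalene, fell by 1.93 and 1.72, and Sqle, which oxidises squalene, by 2.15. Of the steps that close and trim the sterol rings, Lss fell by 1.03, Ebp by 0.91 and Sc5d by 0.58. Srebf2, the transcription factor of the route, fell from 139 ± 20.6 to 54.2 ± 4.46 TPM. Ggps1, which leaves the route towards protein prenylation, was the 1 member that rose (51.5 against 37.8 TPM). It overlaps Arid4b on the other strand, so its level is uncertain. The sterol element TCACNCCAC, searched on both strands, was found in 1 of 21 promoters of the 18 matched genes (4.76%, Hmgcs1) and in 1.24% of all promoters.

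**Figure D3:**
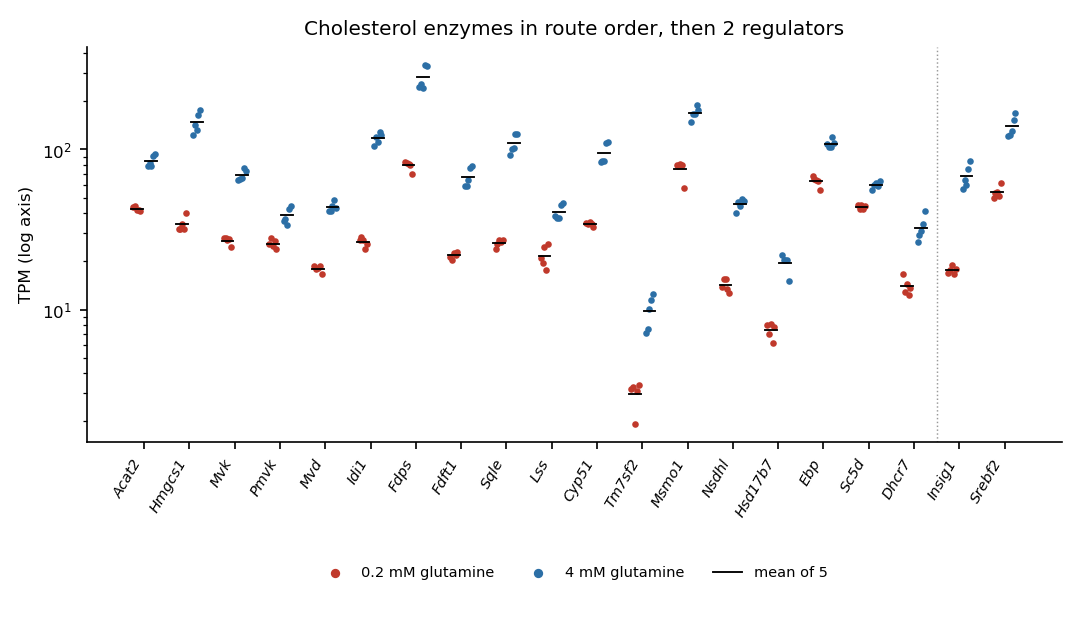
TPM (log axis) in each vehicle library, red for 0.2 mM and blue for 4 mM glutamine, of 18 cholesterol enzymes from left to right in route order, then of Insig1 and Srebf2 right of the dotted line, with means of 5 as bars. Every gene drawn has all its blue points above all its red points, and the widest gap between the groups is at Idi1.

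Fatty acid synthesis fell with it. Of 17 genes 14 fell and 1 rose, with a median of -1.12. Scd2, a desaturase that makes monounsaturated fatty acids, was at 76.3, 75.2, 82, 104 and 114 TPM at 0.2 mM and at 589.8, 697, 763, 899 and 1046 TPM at 4 mM. The groups did not overlap (-3.26 ± 0.18), though near-identical desaturase copies can exchange reads. Fads2, the desaturase of polyunsaturated fatty acids, fell from 253 ± 75.7 to 36.1 ± 4.82 TPM and Elovl6, an elongase, from 21.4 to 4.96 TPM. Acly, Acaca and Fasn, which carry citrate carbon into palmitate, fell by 1.13, 0.59 and 0.97, and Srebf1 by 1.12. Fads3 was the member that rose (0.78).

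Glycolytic genes fell as a group. Of 24 genes of glycolysis and lactate transport 20 fell and 1 rose, and 11 fell at least 2-fold (median -0.96). Pfkl, the liver-type phosphofructokinase, fell from 69.9 ± 9.80 to 14.6 ± 2.06 TPM and Slc16a3, which exports lactate, from 64.3 ± 4.58 to 14.5 ± 2.41 TPM. Ldha, which makes that lactate, and Slc2a1, the main glucose carrier, fell by 1.54 and 1.31. Gapdh, the most abundant member, went from 5674 to 3126 TPM. Txnip and Arrdc4, arrestin-like proteins that limit glucose uptake, rose: Txnip was at 185, 183, 243, 215 and 356 TPM at 0.2 mM and at 39.5, 35.4, 39.3, 58.6 and 60.9 TPM at 4 mM. Replicate 5 was the highest library of each group, without overlap (2.17 ± 0.19), and Arrdc4 rose by 1.54 ± 0.11. Hypoxia genes, which share members with glycolysis, split with 7 of 21 rising and 9 falling. Ndrg1 and Vegfa rose by 1.92 and 0.93, and Pdk1 and Egln3 fell by 1.37 and 1.10.

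Among genes of the citric acid cycle and its feeder reactions Idh1, the cytosolic isocitrate dehydrogenase, fell most. Of 27 genes 14 fell and 4 rose (median -0.32). Idh1 fell from 97.7 ± 15.8 to 17.7 ± 1.16 TPM (-2.53 ± 0.13), followed by Acly, given above with the fatty acid genes, and by Idh2, the mitochondrial form, which fell by 1.08, while Pdhb, a pyruvate dehydrogenase subunit, rose by 0.71. Pcx, which feeds pyruvate carbon into the cycle, was at 11 against 10.4 TPM without a call. Mitochondrially encoded mRNAs took 8.87% ± 0.28 of TPM at 0.2 mM and 10.4% ± 1.17 at 4 mM (SD, n = 5), a difference of -1.50 points (two-sided exact permutation test, p = 0.0079, the smallest that 252 assignments allow). The libraries went from 8.55% to 9.24% and from 9.30% to 12.3%. With libraries paired by replicate number, an exact sign-flip permutation test gave p = 0.062, the smallest that 5 pairs allow. Of the 13 mRNAs 3 fell (mt-Nd6, mt-Nd1 and mt-Co1) and none rose. The first of these overlaps mt-Nd5 on the other strand, so its level is uncertain. Nuclear subunits of the respiratory chain fell in 24 of 75 cases and rose in 15, none of them by 2-fold.

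NADPH-making and antioxidant genes fell more often than they rose, 16 against 7 of 29 (median -0.53). Pgd, of the pentose phosphate route, and Gsta4, a glutathione transferase, fell by 1.86 and 1.98, and Gclm, the regulatory subunit of glutathione synthesis, by 1.28. Hmox1, which breaks down haem, and Slc7a11 rose by 0.71 and 0.99.

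S phase genes rose while mitotic genes fell. Of 38 genes of replication 30 rose and 2 fell (median 0.63), and of 35 genes of mitosis 27 fell and 1 rose (median -0.67). Their summed levels were 5661 ± 145 against 3458 ± 99.8 TPM for replication and 3075 ± 51.2 against 4384 ± 76.2 TPM for mitosis (SD, n = 5). Mcm10, which helps start replication forks, was at 113, 124, 123, 112 and 123 TPM at 0.2 mM and at 37.2, 33.7, 37.4, 36.1 and 35.3 TPM at 4 mM. Every low-glutamine library was far above every replete one (1.56 ± 0.07). Dtl, which directs destruction of the licensing factor Cdt1, and Prim1, the DNA primase, rose by 1.19 and 1.13. Pcna, the sliding clamp, went from 382 ± 12.1 to 735 ± 37.9 TPM. The 2 replication genes that fell were Ccne1 (cyclin E1, 1.01) and Rrm2, a ribonucleotide reductase subunit (0.39). Before subtraction of the median gene Rrm2 changed by -0.26, and its call was lost without replicate 4 at 0.2 mM (-0.23), replicate 1 at 4 mM (-0.21) or replicate 2 at 4 mM (-0.21).

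Plk1, the kinase that drives entry into and exit from mitosis, was at 23.7, 21.2, 21.7, 24.2 and 18.9 TPM at 0.2 mM and at 95.1, 93.6, 94.2, 93.9 and 99.5 TPM at 4 mM. The groups were far apart with no overlap (-2.21 ± 0.06; limma, Benjamini-Hochberg adjusted p = 2.6e-16). Cdc20 and Kif23, which act late in mitosis, fell by 1.64 and 1.59. The cyclins Ccnf, Ccnb1 and Ccnb2 fell by 1.76, 1.09 and 1.44. Mki67, the common marker of dividing cells, was at 51.2, 52.7, 46.6, 51.1 and 53.6 TPM at 0.2 mM and at 58.2, 51.5, 58, 55.1 and 63.4 TPM at 4 mM. The groups overlapped, and the difference as deposited, -0.16, just missed the threshold (limma, Benjamini-Hochberg adjusted p = 0.052). Relative to the median gene of each library it was -0.30 and passed (adjusted p = 7.6e-04), as it did under the other 3 scalings, so its call depends on the scaling. The value as deposited also passed without replicate 5 at 0.2 mM (-0.18) or replicate 2 at 4 mM (-0.20). Ccnd1, the cyclin of early G1, fell from 62.9 ± 9.16 to 30.1 ± 1.94 TPM, while Myc, a driver of growth, was at 250.2, 292, 338, 243 and 438 TPM at 0.2 mM and at 100.1, 104, 105, 92.5 and 91.5 TPM at 4 mM. All low-glutamine libraries were far above all replete ones, replicate 5 highest (1.48 ± 0.15).

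**Figure D4:**
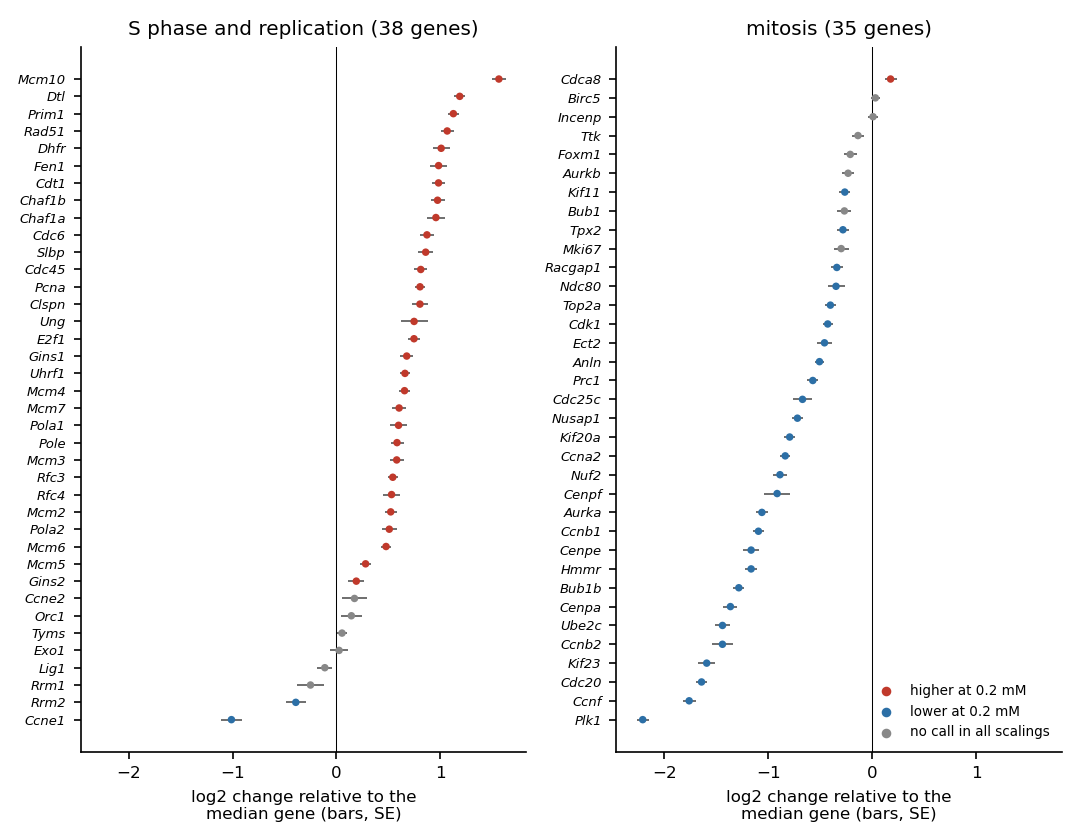
Change relative to the median gene (log2, bars are SE) of the 38 replication genes (left) and 35 mitosis genes (right) at 0.2 mM against 4 mM glutamine. Red points rose, blue points fell and grey points were not called as deposited and under every scaling alike. Most points on the left lie right of 0, Ccne1 and Rrm2 being blue, and most on the right lie left of 0, with Cdca8 red.

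The letters of these promoters differed between the lists. TTTGAA, the cell cycle homology region (CHR) used by late cell cycle genes, was found on either strand in 24 of 30 promoters of the 28 matched mitosis genes (80.0%), in 3 of 35 promoters of the 30 matched replication genes (8.57%), in 12% of promoters of all genes tested and in 17.9% of all promoters. TTTNGCGC, an E2F site, was found in 12 of the 35 replication promoters (34.3%), in 2 of the 30 mitosis promoters (6.67%), in 2.44% of promoters of all genes tested and in 1.38% of all promoters. No promoter held matches of both that shared bases. Since the CHR is known from late cell cycle genes, its share in the mitosis list is partly set by the choice of list. Upstream windows of named genes with a match are shown for Ccnf, which fell, Mki67, which was not called as deposited, and Dtl, which rose, on the gene's strand with each match of that motif inside the window in capitals (CHR for the first pair, with a pair of matches in the Mki67 window, and E2F for Dtl).
Ccnf (chr17:24251410-24251435, minus strand): gctcccggcgcgTTTGAAaacggggc
Mki67 (chr7:135716437-135716512, minus strand): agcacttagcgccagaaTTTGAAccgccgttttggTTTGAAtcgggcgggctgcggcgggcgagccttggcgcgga
Dtl (chr1:191575545-191575587, minus strand): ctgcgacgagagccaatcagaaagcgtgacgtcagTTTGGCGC

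Replication-dependent histone genes fell, while p53 targets and growth arrest genes went both ways. Of 40 tested replication-dependent histone genes 29 fell and none rose, and their summed level was 51.6 ± 4.81 against 205 ± 14.9 TPM (SD, n = 5). Hist1h2bc and Hist1h1c fell by 2.72 and 2.32. Their mRNAs mostly lack poly(A) tails, these libraries were made from polyadenylated RNA, and their copies are near-identical, so their levels are uncertain. Slbp, which binds the histone mRNA end, rose by 0.86. Of 24 p53 targets and arrest genes 9 rose and 9 fell. Gadd45a, a stress gene that slows the cycle, was at 401, 413, 499, 424 and 511 TPM at 0.2 mM and at 31.7, 35.9, 38.4, 34.1 and 49.8 TPM at 4 mM. The groups were far apart (3.40 ± 0.13), although a non-coding gene overlaps it on the other strand. Cdkn1a, the inhibitor p21, was at 51.8, 51.8, 53.9, 38.4 and 57.4 TPM at 0.2 mM and at 8.37, 7.11, 8.56, 7.44 and 9.64 TPM at 4 mM, again without overlap (2.34 ± 0.16), and Pmaip1 and Bbc3, which promote cell death, rose by 1.79 and 1.03. Mdm2 rose by only 0.24, Trp53 was not called (157 against 151 TPM), and the growth arrest gene Gas1 and the inhibitor Cdkn2c fell by 2.60 and 1.41.

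Every tested clock gene rose. All 16 circadian genes were called higher under every scaling, 7 of them at least 2-fold, with a median of 0.84 and changes from 0.40 (Dbp) to 2.68 (Ciart). Ciart, a repressor of the clock's activators, was at 69.7, 72, 67.3, 75.1 and 44.4 TPM at 0.2 mM and at 6.74, 8.38, 7.39, 7.89 and 12.1 TPM at 4 mM. Replicate 5 was the lowest library at 0.2 mM and the highest at 4 mM, and the groups stayed far apart (2.68 ± 0.16; limma, Benjamini-Hochberg adjusted p = 2.7e-12). Cry1 and Cry2, repressors of the core loop, rose by 1.67 and 1.11, Nr1d1 and Nr1d2, which repress the activator Arntl, by 1.09 and 1.10, and Arntl itself by 0.57. Arntl and Nr1d1, which peak at opposite phases of a running clock, both rose at this single time of 32 h.

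Host transcripts of small nucleolar RNAs rose. These RNAs carry the guide RNAs of ribosome assembly in their introns and many are normally degraded during translation. Of 15 host genes 9 rose and 2 fell, 6 rising at least 2-fold (median 0.72). Snhg1 was at 973, 1014, 925, 932 and 948 TPM at 0.2 mM and at 177, 168, 161, 145 and 152 TPM at 4 mM and Snhg12 at 324, 315, 303, 316 and 332 TPM at 0.2 mM and at 54.7, 55, 45.6, 51 and 49.2 TPM at 4 mM. In both, the groups were tight and far apart (2.43 ± 0.07 and 2.48 ± 0.08). Gas5 went from 453 ± 43.2 to 1424 ± 64.8 TPM, and Snhg18 and Snhg3 fell by 1.63 and 0.76. Of all 643 long non-coding RNAs tested 209 rose and 122 fell, 32.5% and 19.0%, against 34.8% and 27.8% of 11705 protein-coding genes. Cytosolic ribosomal protein mRNAs changed little, 31 of 79 rising and 16 falling with none past 2-fold, and translation factors likewise, with 12 of 36 rising and 6 falling. Mitochondrial ribosomal proteins rose in 27 of 78 cases and fell in 12, and proteasome subunits fell in 16 of 36 and rose in 3.

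Matrix genes of fibroblasts fell. Of 44 collagen genes 24 passed the filter, 17 fell and 2 rose, and 14 fell at least 2-fold (median -1.17). Col1a1, which encodes the alpha 1 chain of type I collagen, was at 744, 690.3, 573, 761 and 607 TPM at 0.2 mM and at 3134, 3137, 3046, 3425 and 3697 TPM at 4 mM. The lowest replete library was far above the highest low-glutamine one (-2.42 ± 0.11; limma, Benjamini-Hochberg adjusted p = 2.2e-13). Col3a1 was at 227, 179, 196, 275 and 200.1 TPM at 0.2 mM and at 713, 668, 765, 953 and 1047 TPM at 4 mM, with the same order (-2.07 ± 0.18). The basement membrane chains Col4a1 and Col4a2 were at 261 against 372 and 141 against 171 TPM, the first falling by 0.63 and the second not called. The 2 that rose, Col11a2 and Col20a1, were at 2.70 against 0.4 and 1.31 against 0.166 TPM. Of 31 matrix glycoproteins and cross-linking genes 26 fell and 1 rose (median -1.10). Tnc (tenascin C), Emilin1 (elastic fibres) and Thbs1 (thrombospondin) fell by 2.63, 2.30 and 2.30, Fn1 (fibronectin) by 0.65, and Loxl4, a lysyl oxidase relative, rose by 1.75. Dcn, decorin, was at 53.3, 34.3, 44.3, 66.5 and 58.9 TPM at 0.2 mM and at 141, 123, 202, 263 and 398 TPM at 4 mM. The replete libraries spread widely with replicate 5 highest, yet none reached down to the low-glutamine range (-2.15 ± 0.33). Of 29 matrix proteases and inhibitors 24 fell and 3 rose, Mmp3 from 17.8 to 1.03 TPM. Integrins fell in 10 of 17 cases and rose in 3, Itga11, a collagen receptor of fibroblasts, by 3.28 from 17.8 TPM.

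The contractile programme fell with no member rising. Of 27 contractile and stress fibre genes 22 fell, 10 at least 2-fold, with a median of -0.67. Acta2, smooth muscle actin, was at 635, 457, 484, 703 and 387 TPM at 0.2 mM and at 1525, 1364, 1294, 1285 and 842 TPM at 4 mM. The lowest library of each group was replicate 5, and the groups did not overlap (-1.39 ± 0.21; limma, Benjamini-Hochberg adjusted p = 1.5e-05). Tagln, a myofibroblast actin-binding protein, was at 359, 261, 287, 368 and 202 TPM at 0.2 mM and at 777, 649.7, 629, 668 and 447 TPM at 4 mM, with the same order (-1.25 ± 0.22). It overlaps a gene on the other strand. Actb and Actg1, the cytoplasmic actins, fell by 1.25 and 1.07, with reads that can pass between these near-identical genes, and Mylk, the kinase that starts contraction, by 2.14 from 6.07 TPM. Zyx and Actn1, of adhesions and stress fibres, were not called (1272 against 1283 and 400.1 against 400.1 TPM). The CArG box, the site of serum response factor, was found in 6 of 28 promoters of the 24 matched genes (21.4%) and in 1.63% of all promoters, and Srf itself fell by 0.51.

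Markers of both main CAF subtypes fell. Of 22 tested myCAF markers 18 fell and 3 rose (median -1.33), and of 17 tested iCAF markers 16 fell and none rose (median -1.55), while 10 of 27 iCAF markers did not pass the filter. Among myCAF markers the growth factor binding protein Igfbp3 and the collagen Col8a1 fell by 2.88 and 2.67, and Postn (periostin) from 13.6 ± 1.69 to 5.74 ± 1.18 TPM. The 3 that rose were Ccn2, the activin chain Inhba and Tgfb1, and without replicate 5 of both groups the changes of Ccn2 and Inhba went from 0.88 and 0.83 to 0.53 and 0.55, Ccn2 then missing the threshold (limma, Benjamini-Hochberg adjusted p = 0.063). Among iCAF markers Pdgfra, a receptor for platelet-derived growth factor, was at 7.16, 5.55, 5.20, 5.85 and 6.99 TPM at 0.2 mM and at 30.2, 28.8, 27, 31.8 and 36.8 TPM at 4 mM. The groups did not overlap (-2.30 ± 0.18). Cxcl12, a chemokine that retains stem cells in bone marrow, was at 569, 538, 530.0, 596 and 551 TPM at 0.2 mM and at 1337, 1379, 1402, 1414 and 1336 TPM at 4 mM, tight in both groups (-1.44 ± 0.06). Of the 8 apCAF markers that passed the filter 4 fell and 1 rose, Cd74, the invariant chain, from 0.502 to 2.76 TPM.

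Among cytokine genes of iCAFs, Il6 was low at both glutamine levels and Ccl2 at 0.2 mM only. Il6 was at 0.57, 0.76, 0.89, 0.46 and 1.29 TPM at 0.2 mM and at 2.04, 1.94, 1.32, 1.44 and 1.11 TPM at 4 mM. The groups overlapped through replicate 5, at levels near the filter (-0.66 ± 0.14). Lif, of the same cytokine family, was at 6.51, 9.27, 6.29, 9.32 and 12.4 TPM at 0.2 mM and at 12.4, 13.7, 11.1, 10.1 and 11.7 TPM at 4 mM, with replicate 5 at 0.2 mM inside the replete range (-0.56 ± 0.16), and its call was lost without replicate 1 or 3 at 0.2 mM or replicate 2 at 4 mM (before subtraction of the median gene -0.42 in all libraries, and -0.34, -0.33 and -0.37 without these). Ccl2, which recruits monocytes, was at 3.97, 3.04, 2.15, 3.49 and 2.37 TPM at 0.2 mM and at 55, 49.8, 48.2, 50.5 and 37 TPM at 4 mM. The replete libraries were all far above the low-glutamine ones, replicate 5 nearest (-3.76 ± 0.21; limma, Benjamini-Hochberg adjusted p = 3.4e-12). Cxcl1, a neutrophil attractant, was at 0.82, 1.37, 0.76, 1.01 and 1.14 TPM at 0.2 mM and at 6.94, 8.03, 7.54, 5.63 and 10.2 TPM at 4 mM, again apart (-2.23 ± 0.18), and Ccl7 fell by 3.17. Of 13 chemokines tested 7 fell and 3 rose, the 3 being Ccl25, Ccl20 and Cxcl16. Complement and acute-phase genes fell in 7 of 9 cases and rose in none. Of 20 NF-kB regulators and targets 10 fell and 4 rose, with Relb and Nfkb2, subunits of the non-canonical branch, up by 1.35 and 0.69 and the adhesion molecule Vcam1 down at 69.5 against 141 TPM. Genes of the IL-6 family and JAK-STAT signalling fell in 10 of 20 cases and rose in 2, interferon-stimulated genes fell in 8 of 23 and rose in 2, and MHC class I presentation genes split with 5 of 13 each way.

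Genes of several signalling pathways moved in both directions. Of 27 TGF-beta and BMP pathway genes 16 fell and 6 rose (median -0.67). Id1, Id2 and Id3, early targets of BMP signalling, fell by 2.52, 1.76 and 1.52, and the ligand Tgfb3 fell by 2.35. The ligand Tgfb1 and the activin chain Inhba rose by 0.42 and 0.83, Inhba by 0.55 without replicate 5 of both groups. YAP targets split, with 6 of 19 rising and 6 falling. As deposited 8 were called higher and 6 lower, and without replicate 5 of both groups 5 higher and 8 lower. Ccn1, one of the YAP targets, was at 416, 588, 489, 426 and 465 TPM at 0.2 mM and at 500.4, 599, 419, 379 and 231 TPM at 4 mM. It was not called (0.08 ± 0.23), with replicate 5 at 4 mM the lowest of its group. Growth factors and the IGF system fell in 14 of 29 cases and rose in 6. Igf1 and Igfbp3 fell by 3.19 and 2.88, and the neurotrophin Bdnf rose by 1.22. Immediate early and ERK feedback genes rose in 13 of 28 cases and fell in 7, Klf4 and Dusp4 by 1.59 and 1.56 upwards.

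**Figure D5:**
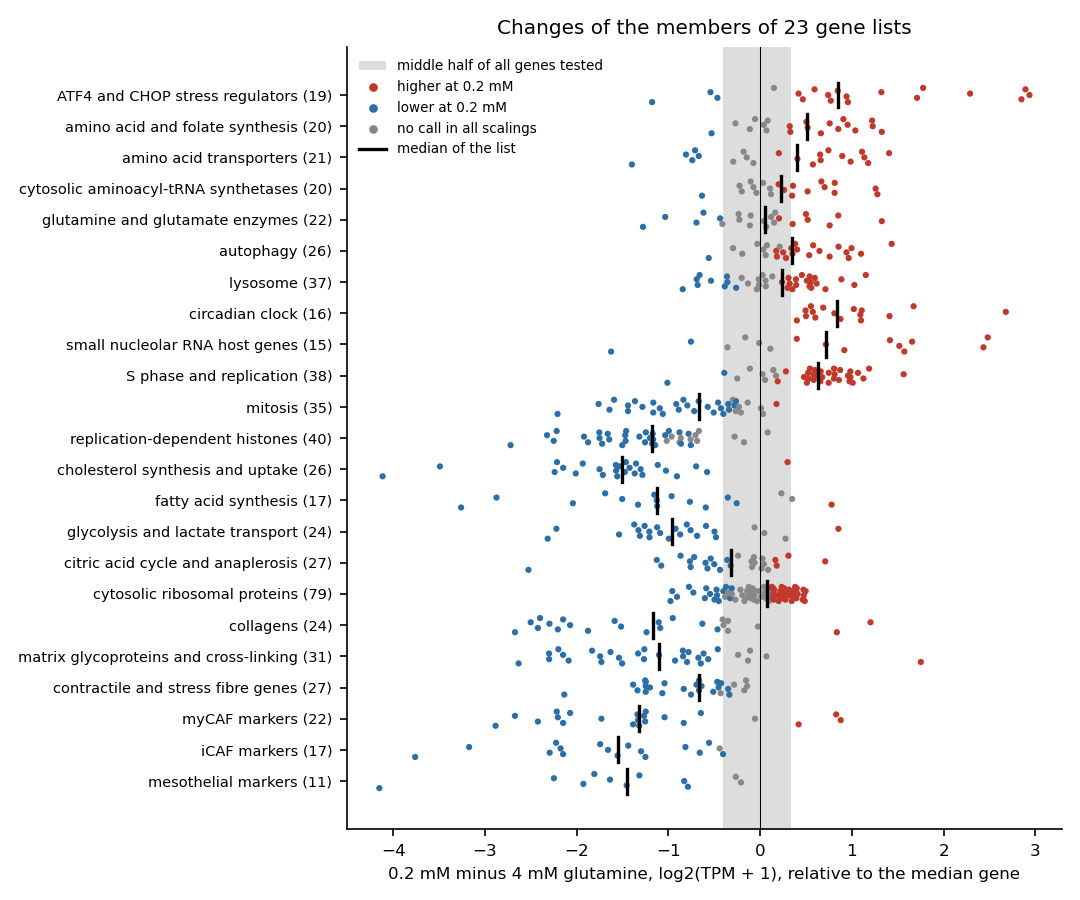
Change relative to the median gene (log2) of each tested member of 23 gene lists (rows, with their number of members), red where it rose, blue where it fell and grey where it was not called under every scaling, the list median as a black bar. The grey band holds the middle of all genes tested, from -0.40 to 0.34, and the medians run from -1.55 (iCAF markers) to 0.85 (ATF4 and CHOP stress regulators).

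Mesothelial markers, which some pancreatic CAFs carry, fell with the fibroblast genes. Of 11 tested 9 fell and none rose (median -1.46), and their summed level ranged from 399 to 571 TPM at 0.2 mM and from 854 to 1395 TPM at 4 mM. Lrrn4, a mesothelial membrane protein, was at 2.31, 1.42, 1.15, 3.04 and 1.53 TPM at 0.2 mM and at 34.6, 32.8, 42.3, 57.5 and 63.1 TPM at 4 mM. The groups were far apart, although the replete libraries spread (-4.15 ± 0.28). Wt1, the transcription factor of mesothelium, and Upk3b, a uroplakin, fell from 194 and 131 to 67.7 and 36.7 TPM, and Msln, mesothelin, was not called (85.4 against 93 TPM). The fibroblast list, 11 of 12 members falling, went from a summed 14290 to 16040 TPM at 4 mM to a summed 6439 to 7521 TPM at 0.2 mM. Krt19 and Krt18, which epithelium also expresses, fell by 0.79 and 1.32, and the epithelial Cdh1 and leukocyte Cd14 fell by 1.09 and 0.99. Whether a change in the makeup of the culture had a part in the falls of matrix and subtype genes was not tested.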

How the data were processed

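RNA was extracted with a PureLink kit, polyadenylated RNA was made into libraries with a Watchmaker kit, and reads of 75 bases from both ends were taken on an Element AVITI. The values are TPM that the authors deposited for 32285 genes in 20 libraries. RSEM and mm10 come from the submitters' processing notes, without versions, and the sources used here name neither aligner nor annotation release. Every library sums to the same TPM total, so sequencing depth is unknown, counting intervals were not possible, and low genes may rest on few reads. IDs were matched to GENCODE M21 of GRCm38 (32235 found), and where a symbol had more than 1 ID the list used the ID with fewest zeros.

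The 12350 genes that reached 1 TPM in 5 or more of the 20 libraries were tested in limma 3.58.1 (R 4.3.3) on log2(TPM + 1), in 1 model of 4 groups with an intensity trend. Adjustment followed Benjamini-Hochberg over all of them (call under 0.05). The added 1 TPM understates changes of low genes. The fit was tested on simulated data. The share of mitochondrially encoded mRNA was compared by exact permutation. The 55 lists (1505 entries in the table), members and named genes were chosen with earlier results of these data known. Named genes were the 15 with the largest relative change in each direction (at least 5 TPM in the higher group, no overlap, held under every scaling), a panel of 32, and up to 2 members per list and direction. Some genes that these rules name, and some members of the lists, are not reported here, though they stay in the counts of genes tested and called. Other members were named as examples after their values were seen. Promoters are RefSeq's (GRCm38.p6).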

Additional observations from a re-analysis of the deposited data

Results flagged for a closer look

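Of 118 groups of 5 values checked among the genes named for their size and the fixed panel, 8 had a library far outside the spread of the other 4, and chance flags about 1 in 20 such groups. In 7 of the 8 that library was replicate 5. At 0.2 mM replicate 5 was low for Asns (505.1 TPM, others 628 to 667), Trib3 (239 TPM, others 320.5 to 342), Chac1 (53 TPM, others 82.8 to 85.9) and Ciart (44.4 TPM, others 67.3 to 75.1). At 4 mM replicate 5 was high for Synpo (44.1 TPM, others 34.1 to 36.0), Car6 (4.1 TPM, others 1.95 to 2.22) and Slc38a2 (263 TPM, others 229 to 237). The remaining library was replicate 4 at 0.2 mM, high for Avil (55.9 TPM, others 42.4 to 46.0).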

How the results depend on the processing

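Counts of genes higher and lower at 0.2 mM stayed within 1.5 times under every scaling, pseudocount, filter, trend, block and left-out library tried, with 5422 to 5601 higher and 3322 to 3435 lower when 1 library was left out. Requiring 2-fold without subtraction of the median gene left 598 higher and 773 lower. Without a filter 20887 genes gave 5976 and 3951, at a mean of 5 TPM 10041 genes gave 4876 and 2732, and at an adjusted p under 0.01 the counts were 4972 and 2995. Whether replicate numbers pair the libraries was not settled. Correlations of same-numbered deviations were small, at 0.11, 0.17, 0.05, 0.05 and 0.09, yet 4 of 5 low-glutamine libraries were nearest their own number. The fit with the replicate block gave 5699 and 3531. The mitochondrial share, -1.50 points, ranged from -1.77 to -1.01 with 1 library left out, and blocked sign flips of 5 pairs gave -1.50 with p = 0.062 (exact permutation, the smallest possible). Glul, not called, was -0.09 as deposited and ranged from -0.14 to 0.0063 with 1 library left out, its sign turning without replicate 5 at 4 mM. Relative to the median gene it was -0.14 there and kept its sign. The cause was not tested. Over all alternatives 56 values of named genes lost their call and 11 gained one while 4310 kept their side. Of the list counts 105 moved by over 1.5 times while 2199 did not, and 69 list medians moved by 0.1 (log2) or more while 1083 moved by less. Leaving out replicate 5 of both groups, chosen after seeing the data, brought YAP targets called higher from 8 to 5 and those called lower from 6 to 8. Their median went from 0.03 to -0.12. Depth is unknown, so the precision of low genes is too.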
